A study of Homo sapiens with 18 samples.

Results

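The tumour necrosis factor (TNF) ligands and receptors form a family of cell-surface and secreted proteins that signal between cells. Its members here were the protein-coding genes of the deposited count table whose symbols begin with TNFSF or TNFRSF followed by a number and an optional letter, together with FAS, FASLG, CD27, CD40, CD70, LTBR, NGFR and EDAR. By this rule 34 of the 25296 genes in the table were members. They comprised 7 receptors with a cytoplasmic death domain, 4 decoy receptors, 13 other receptors and 10 ligands. FASLG and TNFRSF10A had no row and were not analysed here. TNFSF11, TNFSF18, TNFRSF13B and TNFRSF17 were also not among the members. The smallest row total in the table was 10 counts, and why a gene had no row was not tested.

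The libraries came from U2OS, an established human osteosarcoma cell line, in 3 derivatives. The first carried the empty retroviral vector MigR1 and is called EV. The second overexpressed wild-type DNMT3A, a DNA methyltransferase, and is called WT. The last overexpressed a mutant DNMT3A and is called MUT. Its mutation is R882H by the sample labels but R882C by the series text. Each line was sampled untreated and 24 h after exposure to 10 µM cytarabine (Ara-C), a cytidine analogue that is incorporated into DNA and stalls replication. This gave 6 groups of 3 biological replicates. The untreated cells are called a vehicle control in the series text. Whether each line was a clone or a pool of infected cells was not given in the sources used here.

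In most tissues a trimeric ligand of this family binds its receptor on a neighbouring cell. Death-domain receptors can then recruit the adaptor FADD and the initiator caspases, which starts apoptosis, whereas receptors without a death domain bind TRAF proteins and activate NF-kB. Decoy receptors bind ligand without passing on a death signal. FAS and TNFRSF10B are known transcriptional targets of p53, and several family genes are induced by DNA damage in cultured cells.

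Depth ran from 15.4 to 21.9 M estimated counts per library (M, counts in units of 1000 times 1000). Levels are given as counts per M of the scaled library (CPM), and 3 counts, used as the detection floor, corresponded to 0.128 to 0.189 CPM. DNMT3A, the overexpressed gene, stood at 26.9, 27.5 and 26.2 CPM in the untreated EV replicates, 131, 129 and 139 CPM in WT and 499.7, 615 and 254 CPM in MUT. The untreated MUT replicates spread the most, with a biological coefficient of variation of 0.216 over all genes, followed by treated EV with 0.133, while the other groups lay between 0.0398 and 0.0696. Mesenchymal markers were high, VIM between 967 and 2602 CPM, SPARC between 805 and 1171, FN1 up to 722, COL1A1 between 60.8 and 294 and RUNX2 between 29.6 and 53.2. ALPL was lower, from 6.27 CPM in its lowest library, and COL1A2 ran from 0.292 to 8.11 CPM, and TWIST1 had no row. Among the leukocyte markers, PTPRC stayed at or below 1.41 CPM, and CD14 and HLA-DRA held at most 5 counts in any library. NCAM1 lay between 51.4 and 189.6 CPM. The endothelial genes PECAM1 and KDR held at most 9 counts, but CDH5 reached 145, VWF 95 and TEK 50. Of these last 3, 2 in EV and 3 in each of WT and MUT were called higher after cytarabine, as were 3 of 4 neuronal markers in each line, with SYP at 3.56 to 16.5 CPM. The epithelial gene EPCAM stayed at or below 4.01 CPM while KRT18 reached 592 CPM. The part of other cells in the results was not tested. Because the samples were bulk RNA, fewer cells of a kind and less RNA per cell cannot be told apart.

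Of the 34 members, 23 carried enough counts to be tested: 6 death-domain receptors, 2 decoys, 9 other receptors and 6 ligands. The 11 untested members held between 11 and 40 counts summed over all libraries, with at most 10 in any library. They were EDAR, TNFRSF10D, TNFRSF6B, CD27, TNFRSF4, TNFRSF11A, TNFRSF18, TNFSF8, TNFSF10, TNFSF13B and TNFSF14. TNFSF10 encodes TRAIL, the ligand of TNFRSF10B, and its counts were 0, 0 and 0 in untreated EV and 8, 0 and 8 in treated EV. WT held 0, 1 and 0 counts untreated and 1, 0 and 1 treated, and MUT 0, 0 and 1 untreated and 6, 10 and 4 treated. No library held more than 10 counts of TRAIL. Among the tested members, 17 had at least 10 counts in every library and 6 did so only in some groups. TNFRSF10C did so in untreated EV, TNFRSF1B in treated EV, and TNFSF4 in the treated groups of all 3 lines and no untreated group. TNFRSF8 did so in both EV groups and treated MUT, TNFRSF19 in these and untreated WT, and TNFSF12 in EV and MUT. These members passed the filter through the groups where they were high. The counts of calls that include them, and the tests of TNFRSF8, TNFRSF19 and TNFSF12 given below, are therefore a description.

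Levels differed widely within the family. Per kilobase of canonical transcript, untreated EV cells held most of TNFRSF12A, the TWEAK receptor FN14, at 389 CPM per kb, followed by CD70, the ligand of CD27, at 97.3 CPM per kb. Next came the TNF receptor TNFRSF1A at 49.7, the lymphotoxin receptor LTBR at 44.5, the TRAIL receptor TNFRSF10B at 32.7, TNFSF9 at 29.7 and CD40 at 25.1 CPM per kb. TNFRSF11B followed at 14.7, FAS at 10.3 and TNFRSF21 at 9.53 CPM per kb, and the libraries of FAS and TNFRSF21 overlapped in this order. TNFRSF12A and CD70 ranked first and second in all 6 groups. The remaining tested members lay at or below 3.84 CPM per kb in untreated EV.

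Promoter sequence from RefSeq (GRCh38.p14) was matched for 21 of the 34 members. Of their windows of 250 bases upstream of the RefSeq start, 7 held no exon of the GENCODE annotation. Since DNMT3A methylates cytosines in CpG pairs, 3 of these windows are shown for members described further on: the death-domain receptor TNFRSF21 at chr6:47309906-47310155 (minus strand), the ligand TNFSF9 at chr19:6530776-6531025 (plus strand) and the receptor TNFRSF8 at chr1:12063053-12063302 (plus strand). The count table's own gene bounds differ: they take in the last 27 bases of the TNFSF9 window and 1 base of that of TNFRSF21. Capitals mark CpG pairs.
TNFRSF21: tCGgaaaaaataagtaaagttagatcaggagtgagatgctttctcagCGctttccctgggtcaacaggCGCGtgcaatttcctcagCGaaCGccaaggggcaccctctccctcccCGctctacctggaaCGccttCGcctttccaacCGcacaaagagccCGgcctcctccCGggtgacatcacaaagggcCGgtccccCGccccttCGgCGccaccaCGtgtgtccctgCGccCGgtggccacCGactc
TNFSF9: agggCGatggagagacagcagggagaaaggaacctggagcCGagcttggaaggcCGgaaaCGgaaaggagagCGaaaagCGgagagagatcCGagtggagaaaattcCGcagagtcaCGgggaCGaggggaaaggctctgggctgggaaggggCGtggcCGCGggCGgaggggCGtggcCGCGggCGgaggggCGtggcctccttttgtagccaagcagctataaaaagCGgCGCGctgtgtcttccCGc
TNFRSF8: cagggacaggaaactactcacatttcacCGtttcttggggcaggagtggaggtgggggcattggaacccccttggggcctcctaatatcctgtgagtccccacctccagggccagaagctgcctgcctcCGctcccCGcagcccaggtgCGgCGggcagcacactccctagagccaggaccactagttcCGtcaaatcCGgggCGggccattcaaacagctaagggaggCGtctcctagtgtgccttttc

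The TNFRSF21 window held 20 CpG pairs, the TNFSF9 window 23 and the TNFRSF8 window 9. With the 50 bases after the start included, these windows of 300 bases held 23, 27 and 11 pairs, and the median of all 35116 RefSeq promoters was 14 pairs. Among members with a promoter sequence, the median was 11.5 pairs for the 14 tested and 8 pairs for the 7 untested. On both strands, TATAAA was found in 3 of 21 member windows and in 11.5% of all promoters, TGANTCA (an AP-1 motif) in 6 of 21 and 7.71% and the p53 half-site consensus in 2 of 21 and 6.63%. The TATAAA of the TNFSF9 window lies in the sequence printed above. DNA methylation was not measured in these libraries.

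After cytarabine 17 of 23 tested members were called in at least 1 line, near the 68.8% of all genes, and more members rose than fell in each line. In EV 15 of 23 passed the threshold (edgeR quasi-likelihood test, Benjamini-Hochberg adjusted p under 0.05 over 18226 genes), 12 higher and 3 lower after treatment, when 49.1% of all genes passed, 26.1% higher and 22.9% lower. WT had 13 of 23, 10 higher and 3 lower, against 49.0% of all genes, 26.3% higher and 22.7% lower. MUT had 16 of 23, 14 higher and 2 lower, against 56.3%, 30.4% higher and 25.9% lower. The median log2 fold change over the tested members was 0.30 in EV, 0.41 in WT and 0.50 in MUT, beside 0.05, 0.03 and 0.05 over all genes. The 9 members FAS, NGFR, TNFRSF10B, TNFRSF21, TNFRSF14, CD70, TNFSF4, TNFSF9 and TNFSF15 rose in all 3 lines and TNFRSF12A and TNFRSF9 fell in all 3, whereas 18.9% of all genes rose and 16.4% fell in all 3. TNFSF4 is among the 9 after passing the filter through the treated groups only. TNFRSF1B, counted as higher in EV and MUT, passed it through treated EV alone. Without untreated EV replicate 3 the EV count was 10. Treated libraries lay wholly above untreated ones for 12 members in EV, 10 in WT and 16 in MUT, and wholly below for 6, 6 and 2. Over all genes, 58.8% in EV, 65.4% in WT and 56.6% in MUT had no overlap in either direction.

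**Figure D1:**
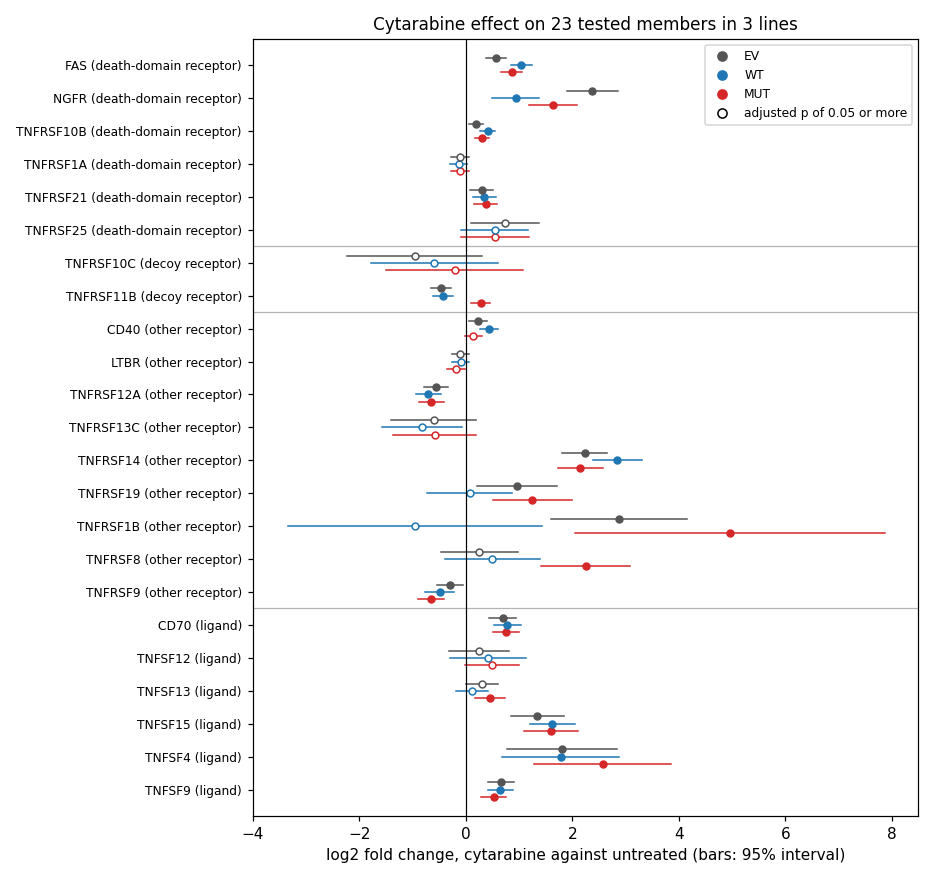
Log2 fold change of cytarabine-treated against untreated cells for the 23 tested members, grouped by role, in EV (grey), WT (blue) and MUT (red). Points are estimates of the edgeR fit, bars their 95% interval, and open points did not pass the adjusted p of 0.05. Most filled points lie to the right of 0, TNFRSF12A and TNFRSF9 lie to the left in all lines, and TNFRSF11B lies on both sides. TNFRSF1B, with few or no counts in most libraries, has the widest intervals.

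Among the death-domain receptors, FAS, TNFRSF10B, TNFRSF21 and NGFR rose in each of the 3 lines. TNFRSF1A and TNFRSF25 did not pass the test in any line in the fit of all libraries. FAS (chromosome 10, 88990582 to 89015786, plus strand), the receptor of FAS ligand, went from 37.5, 36.3 and 40.7 CPM in untreated EV to 50.3, 56.5 and 62.9 CPM after cytarabine. WT went from 37.7, 34.1 and 36.8 to 72.0, 79.7 and 71.7 CPM, and MUT from 34.2, 26.2 and 31.6 to 52.6, 58.0 and 57.3 CPM. In every line all treated libraries lay above all untreated ones, beside the shares of all genes without overlap given above. The log2 fold change of FAS was 0.57 ± 0.094 (SE, edgeR adjusted p = 5.4e-05) in EV, 1.04 ± 0.0933 (SE, edgeR adjusted p = 3.32e-08) in WT and 0.86 ± 0.0947 (SE, edgeR adjusted p = 2.89e-07) in MUT. The WT estimate exceeded that of EV by a log2 difference of 0.47 ± 0.132 (SE, edgeR adjusted p = 0.193), and the MUT estimate by a log2 difference of 0.30 ± 0.133 (SE, edgeR adjusted p = 0.286), neither passing the threshold. Fitted on the libraries of EV and WT alone, the first of these had an adjusted p of 0.0357. FAS shares 759 bases with ACTA2 on the other strand, which averaged 6.91 CPM against 48.7 CPM for FAS.

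TNFRSF10B (chromosome 8, 23020133 to 23069180, minus strand), known as TRAIL receptor 2 or DR5, rose by small steps. Its levels were 130.4, 132 and 129.7 CPM in untreated EV and 141, 153 and 156 CPM in treated EV. They were 119, 116 and 121 and then 154, 165 and 154 CPM in WT, and 115, 98.8 and 106 and then 128, 137 and 129 CPM in MUT. Treated and untreated libraries did not overlap in any line. The log2 fold change was 0.20 ± 0.0641 (SE, edgeR adjusted p = 0.0155) in EV, 0.41 ± 0.0641 (SE, edgeR adjusted p = 2.84e-05) in WT and 0.30 ± 0.0643 (SE, edgeR adjusted p = 0.000558) in MUT. The EV call was lost with the authors' scale factors (adjusted p = 0.114) and without treated EV replicate 3 or untreated EV replicate 3 (adjusted p up to 0.0731).

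TNFRSF21 (chromosome 6, 47231532 to 47309906, minus strand), or death receptor DR6, whose upstream window is printed above, also rose by small steps. EV held 35.8, 34.1 and 32.9 CPM untreated and 42.3, 45.3 and 39.0 CPM treated. The WT replicates held 33.9, 42.3 and 36.0 and 44.9, 49.6 and 48.7 CPM, and the MUT replicates 26.4, 34.0 and 24.0 and 35.7, 36.7 and 36.7 CPM. No treated library fell within the untreated range of its own line. The log2 fold changes were 0.30 ± 0.105 (SE, edgeR adjusted p = 0.0235), 0.35 ± 0.103 (SE, edgeR adjusted p = 0.00803) and 0.37 ± 0.105 (SE, edgeR adjusted p = 0.00538) in EV, WT and MUT. These calls were close to the threshold: EV lost its call without treated replicate 2, untreated replicate 2 or untreated replicate 3 (adjusted p up to 0.0924) and with the authors' scale factors. WT lost it without untreated replicate 1 (adjusted p = 0.0534) and MUT without untreated replicate 3 (adjusted p = 0.0541).

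NGFR (chromosome 17, 49495293 to 49515018, plus strand), the p75 neurotrophin receptor, had the largest fold change of the death-domain receptors in EV and MUT, from a low level. Untreated EV held 1.75, 1.46 and 1.11 CPM and treated EV 7.38, 9.49 and 5.82 CPM. In WT it went from 3.14, 1.90 and 2.47 to 5.06, 5.03 and 4.35 CPM, and in MUT from 2.36, 2.20 and 1.94 to 7.65, 5.98 and 6.67 CPM. Treated libraries lay above untreated ones throughout. The fitted log2 change was 2.38 ± 0.227 (SE, edgeR adjusted p = 7.58e-08) in EV, 0.94 ± 0.212 (SE, edgeR adjusted p = 0.00115) in WT and 1.64 ± 0.214 (SE, edgeR adjusted p = 2.57e-06) in MUT. The WT estimate minus that of EV was -1.44 ± 0.312 (SE, edgeR adjusted p = 0.0602), just outside the threshold. That difference passed with a mean of at least 50 counts (adjusted p = 0.0456), in a fit of EV and WT alone (0.0337) and in DESeq2 (0.0114).

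**Figure D2:**
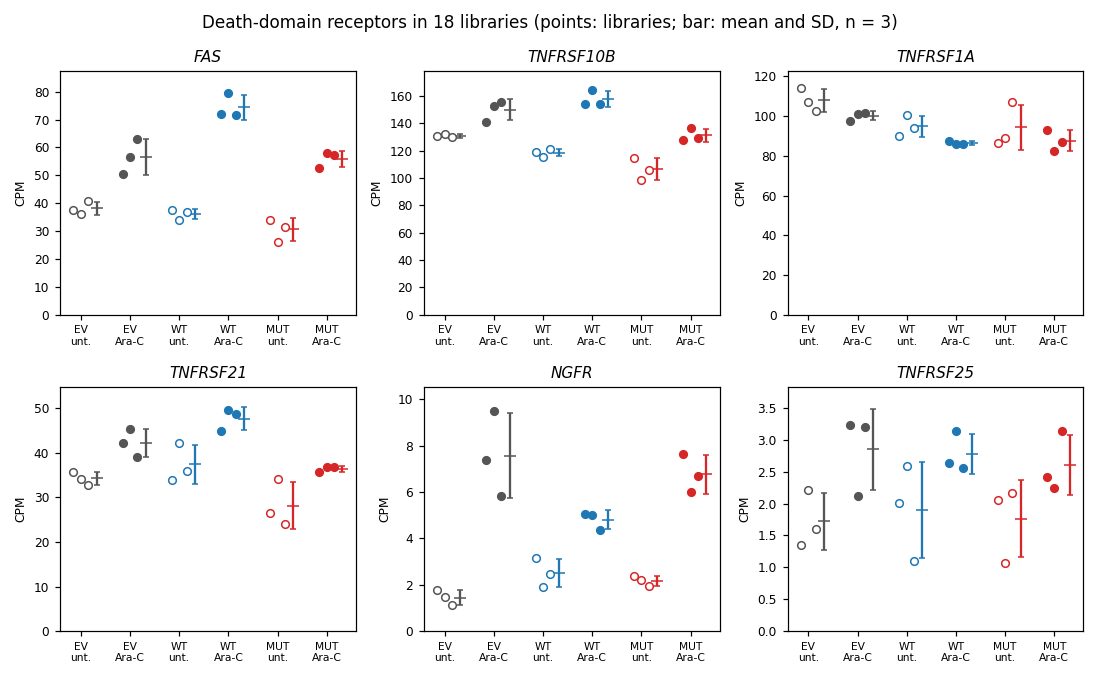
Levels in CPM of the 6 tested death-domain receptors in the 18 libraries, by line and treatment, each panel with its own axis from 0. Open points are untreated and filled points treated libraries, and the bar is the mean and SD of 3 replicates. FAS, TNFRSF10B, TNFRSF21 and NGFR have all treated points above the untreated points of the same line, while TNFRSF1A has none and TNFRSF25 overlaps in EV and WT.

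TNFRSF1A (chromosome 12, 6328757 to 6342115, minus strand), the main receptor for TNF, stayed between 82.7 and 114 CPM over all libraries. Treated EV and WT libraries lay just below the untreated ones and those of MUT overlapped. Its log2 fold change was -0.11 ± 0.0769 (SE, edgeR adjusted p = 0.266) in EV, -0.13 ± 0.0771 (SE, edgeR adjusted p = 0.161) in WT and -0.11 ± 0.0771 (SE, edgeR adjusted p = 0.245) in MUT. The WT value passed in a fit of WT alone (edgeR adjusted p = 0.0229). Between lines TNFRSF1A was called only under some alternatives, such as lower in WT than in EV in fits of these groups alone (edgeR adjusted p = 0.00582 untreated and 0.0153 treated). TNFRSF25 (chromosome 1, 6460786 to 6466196, minus strand), or DR3, the receptor of the ligand TNFSF15, had 1.34, 2.22 and 1.60 CPM in untreated and 3.23, 2.12 and 3.21 CPM in treated EV, and the ranges overlapped. Its log2 fold change was 0.74 ± 0.308 (SE, edgeR adjusted p = 0.055) in EV, 0.54 ± 0.302 (SE, edgeR adjusted p = 0.146) in WT and 0.55 ± 0.305 (SE, edgeR adjusted p = 0.134) in MUT. TNFRSF25 passed in EV with upper-quartile scaling (adjusted p = 0.0368), in a fit of the EV libraries alone (0.0421), in DESeq2 (0.0498) and without treated replicate 2 (0.0318) or untreated replicate 2 (0.0357). EDAR, the ectodysplasin receptor, held at most 6 counts in any library.

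Of the decoy receptors, TNFRSF11B (chromosome 8, 118923557 to 118952201, minus strand) moved in opposite directions in different lines. It encodes osteoprotegerin, a secreted receptor that binds RANK ligand and TRAIL and is known for restraining bone resorption. It went from 31.0, 28.8 and 32.1 CPM to 20.6, 22.5 and 23.1 CPM in EV and from 35.6, 33.0 and 35.1 to 26.7, 24.0 and 26.4 CPM in WT. In MUT it went from 55.9, 45.6 and 58.5 to 62.9, 62.4 and 69.5 CPM. The treated libraries of EV and WT lay below the untreated ones and those of MUT above, and every MUT library exceeded every EV and WT library. In log2 terms the change was -0.47 ± 0.0908 (SE, edgeR adjusted p = 0.00026) in EV, -0.43 ± 0.0887 (SE, edgeR adjusted p = 0.000524) in WT and 0.28 ± 0.0842 (SE, edgeR adjusted p = 0.00777) in MUT.

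The log2 fold change of TNFRSF11B in MUT, a rise, minus that in EV, a fall, was 0.75 ± 0.124 (SE, edgeR adjusted p = 0.017), with a 95% interval from 0.494 to 1.01. Minus that in WT, also a fall, it was 0.71 ± 0.122 (SE, edgeR adjusted p = 0.00803), with an interval from 0.453 to 0.965. TNFRSF11B was the 1 member of 23 whose effect differed in these comparisons, in which 0.214% (MUT against EV, 0.154% higher and 0.0604% lower) and 1.00% (MUT against WT, 0.510% higher and 0.494% lower) of all genes passed. For WT against EV, 0 of 23 members passed in edgeR beside 0.285% of all genes (0.143% in each direction), with 4 at an unadjusted p under 0.05 and 1 member passing in DESeq2. Opposite calls in a pair of lines were made for 53 of 18226 genes, or 0.291%. The rise in MUT alone was the least firm value: it did not pass with the authors' scale factors, in a fit of the MUT libraries alone, or without treated MUT replicate 3 or untreated MUT replicate 2, with values from 0.14 to 0.32 over all left-out libraries (adjusted p up to 0.116). The difference from EV was lost without untreated EV replicate 1 or 3 or treated MUT replicate 3 (adjusted p up to 0.0694) and in a fit of EV and MUT alone (0.134), whereas the difference from WT passed under every alternative. Without untreated MUT replicate 2, CD40 also differed between MUT and WT in its effect (adjusted p = 0.0445).

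TNFRSF10C, a decoy for TRAIL that is anchored to the membrane by a lipid, was tested but not called in any line. Its level was at most 1.13 CPM. No fold or test is given for it, because only untreated EV held at least 10 counts of it in every library. The TRAIL receptors lie next to each other on chromosome 8 and resemble each other in sequence, and how reads matching several of them were counted was not given in the sources used here. TNFRSF6B shares its 2035 bases with the read-through gene RTEL1-TNFRSF6B on the same strand, so its few counts are uncertain.

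Among the other receptors, TNFRSF14 showed the steepest change that was common to all lines, and TNFRSF12A and TNFRSF9 fell. TNFRSF14 (chromosome 1, 2555639 to 2565383, plus strand), the herpesvirus entry mediator HVEM that binds LIGHT, went from 1.34, 1.87 and 1.78 to 7.66, 6.62 and 9.19 CPM in EV. WT went from 0.834, 0.635 and 1.10 to 6.24, 6.69 and 5.53 CPM and MUT from 1.41, 2.20 and 2.05 to 8.18, 8.48 and 8.39 CPM. The lowest treated library, at 5.53 CPM, stood above the highest untreated one, at 2.20 CPM. The log2 fold change was 2.23 ± 0.202 (SE, edgeR adjusted p = 3.77e-08) in EV, 2.84 ± 0.219 (SE, edgeR adjusted p = 5.33e-09) in WT and 2.15 ± 0.197 (SE, edgeR adjusted p = 2.77e-08) in MUT. The antisense gene TNFRSF14-AS1 overlaps 1394 bases of it and stayed at or below 0.844 CPM.

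TNFRSF12A (chromosome 16, 3018445 to 3022384, plus strand), whose product FN14 is induced by growth factors and injury, was lower after treatment. EV went from 377, 392 and 373 CPM to 279.8, 221 and 273 CPM, WT from 452, 470.1 and 438 to 254, 289.8 and 292 CPM and MUT from 463, 341 and 497 to 266, 267 and 298 CPM, with no overlap in any line. The fitted log2 change was -0.56 ± 0.111 (SE, edgeR adjusted p = 0.000334), -0.70 ± 0.111 (SE, edgeR adjusted p = 3.1e-05) and -0.65 ± 0.111 (SE, edgeR adjusted p = 5.87e-05) in EV, WT and MUT. TNFRSF9 (chromosome 1, 7915894 to 7943166, minus strand), the costimulatory receptor CD137 that binds TNFSF9, went from 18.6, 21.4 and 21.8 to 13.5, 19.0 and 17.9 CPM in EV, where the ranges overlapped. In WT it went from 10.0, 10.3 and 9.79 to 6.73, 7.94 and 6.82 CPM and in MUT from 17.5, 20.3 and 20.7 to 13.0, 12.0 and 12.2 CPM, both without overlap. Its log2 fold change was -0.29 ± 0.117 (SE, edgeR adjusted p = 0.0439) in EV, -0.49 ± 0.128 (SE, edgeR adjusted p = 0.0035) in WT and -0.65 ± 0.118 (SE, edgeR adjusted p = 0.000112) in MUT. The EV call did not hold with upper-quartile scaling, with a mean of at least 50 counts, in a fit of EV alone, or without treated replicate 1 or untreated replicate 2 or 3 (adjusted p up to 0.255).

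CD40 (chromosome 20, 46118272 to 46129864, plus strand), the receptor through which T cells activate antigen-presenting cells, rose in EV and WT. Its levels were 43.9, 40.7 and 42.1 and 52.2, 47.2 and 49.2 CPM in untreated and treated EV, 43.7, 42.8 and 40.8 and 59.1, 56.7 and 56.9 CPM in WT, and 42.4, 39.6 and 50.9 and 50.7, 46.4 and 49.7 CPM in MUT. The ranges overlapped in MUT and were apart in EV and WT. In log2 terms the change was 0.23 ± 0.0793 (SE, edgeR adjusted p = 0.0208) in EV, 0.44 ± 0.0784 (SE, edgeR adjusted p = 0.000116) in WT and 0.14 ± 0.0786 (SE, edgeR adjusted p = 0.13) in MUT, and no difference between the lines passed, the smallest adjusted p being 0.198 for MUT against WT. EV lost the call without treated replicate 1 or untreated replicate 2 or 3 (adjusted p up to 0.0845) and with the authors' scale factors (0.149), and MUT gained one without untreated replicate 3 (0.00914).

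TNFRSF8, TNFRSF19 and TNFRSF1B were low, and the first and second of them rose in some lines. TNFRSF8 (chromosome 1, 12063377 to 12144208, plus strand), or CD30, a marker of activated lymphocytes, went from 0.451, 0.503 and 0.457 to 3.08, 2.30 and 1.44 CPM in MUT, a log2 fold change of 2.26 ± 0.399 (SE, edgeR adjusted p = 8.36e-05). In EV it was 0.25 ± 0.346 (SE, edgeR adjusted p = 0.579) and in WT 0.50 ± 0.425 (SE, edgeR adjusted p = 0.348), and the differences of MUT from EV (adjusted p = 0.105) and from WT (0.149) did not pass. Only the EV groups and treated MUT held at least 10 counts of TNFRSF8 in every library, so its tests are a description. TNFRSF19 (chromosome 13, 23570370 to 23676105, plus strand), also called TROY, had log2 fold changes of 0.96 ± 0.357 (SE, edgeR adjusted p = 0.0312) in EV, 0.07 ± 0.382 (SE, edgeR adjusted p = 0.893) in WT and 1.25 ± 0.354 (SE, edgeR adjusted p = 0.00546) in MUT. The EV call was lost without any 1 of treated replicates 2 and 3 and untreated replicates 1, 2 and 3 (adjusted p up to 0.117). Treated WT and untreated MUT did not hold 10 counts of TNFRSF19 in every library, so its WT and MUT values are a description. TNFRSF1B (chromosome 1, 12167003 to 12209229, plus strand), the second TNF receptor, held 2, 2 and 6 counts in untreated and 34, 22 and 34 counts in treated EV, and treated EV lay above all other groups without overlap. WT held at most 3 counts of it in any library. MUT had 0, 0 and 0 counts untreated and 4, 2 and 7 treated. It is among the members counted as higher in EV and MUT, but no fold or test is given for it, because it passed the low-count filter through treated EV alone. LTBR and TNFRSF13C, the receptor for the B cell factor BAFF, were called in no line in the edgeR fit of all libraries. LTBR in MUT had a log2 fold change of -0.18 ± 0.0788 (SE, edgeR adjusted p = 0.0612), which passed with the authors' scale factors (adjusted p = 0.00997), in DESeq2 (0.0139) and without treated MUT replicate 3 (0.0211) or untreated MUT replicate 2 (0.00208). TNFRSF13C had -0.82 ± 0.361 (SE, edgeR adjusted p = 0.0672) in WT, which passed in a fit of WT alone (adjusted p = 0.0103). In MUT it had -0.58 ± 0.372 (SE, edgeR adjusted p = 0.192), which passed without untreated MUT replicate 1 (0.048).

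The ligands that passed the test were all higher after treatment: CD70, TNFSF9, TNFSF15 and TNFSF4 in every line and TNFSF13 in MUT. CD70 (chromosome 19, 6583183 to 6604104, minus strand), whose receptor CD27 held few counts here, went from 87.0, 91.4 and 87.6 to 157, 120.1 and 153 CPM in EV, from 60.3, 61.0 and 58.8 to 108, 93.2 and 109 CPM in WT and from 101, 74.0 and 112 to 173, 149 and 164 CPM in MUT. Its log2 fold change was 0.69 ± 0.119 (SE, edgeR adjusted p = 8.03e-05), 0.78 ± 0.121 (SE, edgeR adjusted p = 2.47e-05) and 0.76 ± 0.119 (SE, edgeR adjusted p = 2.31e-05) in EV, WT and MUT. TNFSF9 (chromosome 19, 6530999 to 6535929, plus strand), the ligand of TNFRSF9, went from 52.3, 44.5 and 48.8 to 77.7, 71.9 and 81.6 CPM in EV. WT had 41.5, 44.8 and 45.2 and 71.3, 63.9 and 71.3 CPM, and MUT 58.1, 45.0 and 72.2 and 87.8, 79.8 and 84.4 CPM. Neither gene had overlapping groups in any line, and TNFSF9 rose where its receptor fell. The log2 fold change of TNFSF9 was 0.67 ± 0.115 (SE, edgeR adjusted p = 8.33e-05), 0.65 ± 0.115 (SE, edgeR adjusted p = 0.000109) and 0.52 ± 0.114 (SE, edgeR adjusted p = 0.000658). In MUT it came to 0.33 (adjusted p = 0.0061) without untreated replicate 2, whose level of TNFSF9 was the lowest of that group.

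TNFSF15 (chromosome 9, 114784635 to 114806127, minus strand), the ligand TL1A, went from 2.69, 2.34 and 1.29 to 5.43, 5.99 and 4.75 CPM in EV. WT stood higher throughout, at 5.0, 5.61 and 5.06 CPM untreated and 17.8, 17.5 and 13.0 CPM treated. MUT, at 1.55, 2.26 and 1.31 and 5.27, 6.08 and 4.05 CPM, overlapped EV under both conditions. The log2 fold change was 1.34 ± 0.236 (SE, edgeR adjusted p = 0.000101), 1.62 ± 0.204 (SE, edgeR adjusted p = 2.29e-06) and 1.59 ± 0.241 (SE, edgeR adjusted p = 1.49e-05) in EV, WT and MUT. TNFSF4 (chromosome 1, 173183734 to 173207314, minus strand), the OX40 ligand, was near the floor before treatment, with 7, 5 and 3 counts in EV, 7, 2 and 3 in WT and 2, 0 and 3 in MUT. After treatment it reached 24, 16 and 23 counts in EV, 13, 17 and 14 in WT and 17, 12 and 10 in MUT. Since TNFSF4 passed the low-count filter through the treated groups only, no fold or test is given for it. TNFSF13, or APRIL, rose in MUT from 8.27, 8.72 and 8.0 to 11.9, 12.4 and 10.0 CPM, a log2 fold change of 0.45 ± 0.138 (SE, edgeR adjusted p = 0.00883), with 0.30 ± 0.143 (SE, edgeR adjusted p = 0.091) in EV and 0.12 ± 0.142 (SE, edgeR adjusted p = 0.494) in WT. The EV value passed with a mean of at least 50 counts (adjusted p = 0.0452), with upper-quartile scaling (0.0384) and without treated replicate 3 (0.0476) or untreated replicate 1 (0.0138). TNFSF12, or TWEAK, passed in no line.

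**Figure D3:**
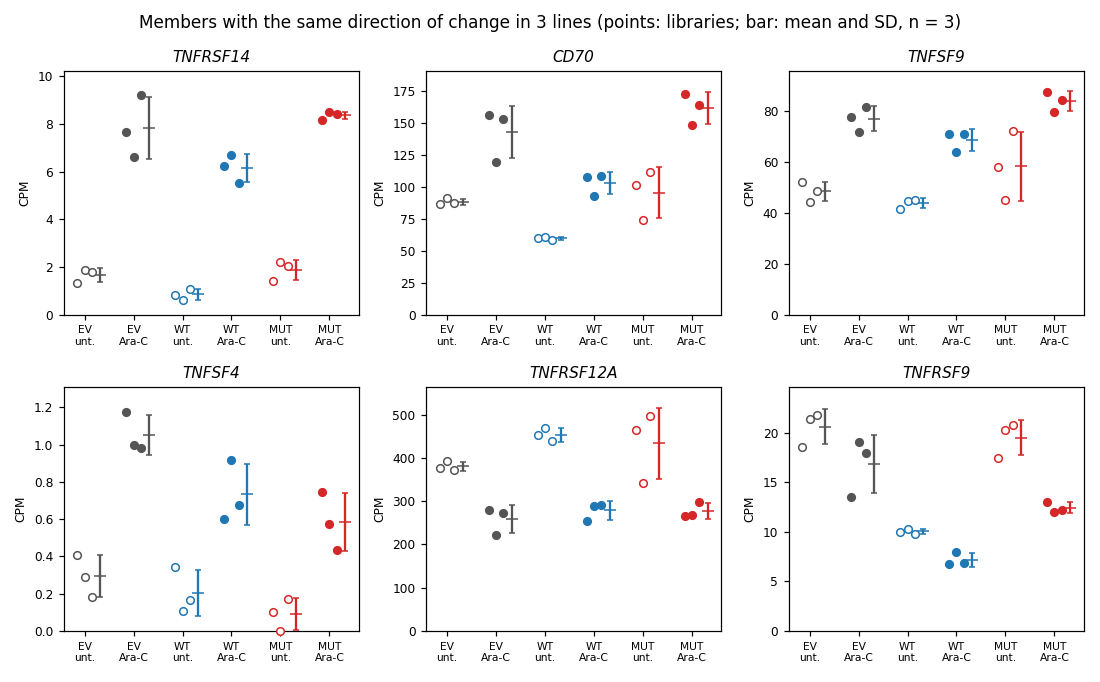
Levels in CPM of 6 members that were called in the same direction in all 3 lines, in the 18 libraries by line and treatment, each panel with its own axis from 0. Open points are untreated and filled points treated libraries, and the bar is the mean and SD of 3 replicates. TNFRSF14, CD70, TNFSF9 and TNFSF4 are higher after cytarabine and TNFRSF12A and TNFRSF9 lower, with overlap for TNFRSF9 in EV.

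Before treatment the lines differed in several members. Between WT and EV 7 of 23 differed, 2 higher and 5 lower in WT (11.7% of all genes passed, 4.30% higher and 7.36% lower). MUT differed from EV in 6, 2 higher and 4 lower (19.9%, 9.88% higher and 10.0% lower), and from WT in 8, 6 higher and 2 lower (21.2%, 11.7% higher and 9.54% lower). These comparisons share groups and are not independent. Libraries did not overlap for 40.3% of all genes between untreated WT and EV, 30.4% between MUT and EV and 31.9% between MUT and WT. When only the groups compared entered the fit WT and EV differed in 11 of 21 tested members (31.5% of all genes), MUT and EV in 2 of 21 (5.83%) and MUT and WT in 5 of 20 (7.16%). The count for MUT against EV was 3 without untreated EV replicate 3 and 8 without untreated MUT replicate 2.

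CD70, TNFRSF9 and TNFSF12 were lowest in WT, and TNFSF15 was highest there. CD70 was lower in untreated WT than in EV with a log2 fold change of -0.56 ± 0.121 (SE, edgeR adjusted p = 0.00408), and higher in MUT than in WT with a log2 fold change of 0.68 ± 0.121 (SE, edgeR adjusted p = 0.000578). TNFRSF9 was lower in WT than in EV with a log2 fold change of -1.04 ± 0.121 (SE, edgeR adjusted p = 8.35e-06) and higher in MUT than in WT with a log2 fold change of 0.96 ± 0.121 (SE, edgeR adjusted p = 1.75e-05). TNFSF15 was higher in WT than in EV with a log2 fold change of 1.30 ± 0.236 (SE, edgeR adjusted p = 0.000942) and lower in MUT than in WT with a log2 fold change of -1.62 ± 0.242 (SE, edgeR adjusted p = 0.000108). For CD70, TNFRSF9 and TNFSF15 the untreated MUT and EV libraries overlapped.

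TNFSF12 (chromosome 17, 7548891 to 7557891, plus strand), which encodes the TNFRSF12A ligand TWEAK, formed 3 separate levels. Untreated EV held 0.992, 1.17 and 1.35 CPM, WT 0.343, 0.370 and 0.385 CPM and MUT 1.81, 2.19 and 2.17 CPM, and after treatment EV held 1.37, 1.06 and 1.71 CPM, WT 0.603, 0.324 and 0.532 CPM and MUT 3.08, 2.63 and 3.01 CPM. WT was below EV, with a log2 value of -1.66 ± 0.314 (SE, edgeR adjusted p = 0.00134) untreated and -1.49 ± 0.289 (SE, edgeR adjusted p = 0.00135) treated. MUT was above WT with a log2 fold change of 2.47 ± 0.299 (SE, edgeR adjusted p = 1.14e-05) untreated and 2.55 ± 0.277 (SE, edgeR adjusted p = 2.79e-06) treated. These comparisons with WT are a description, because TNFSF12 reached 10 counts in every library only in the EV and MUT groups. Against EV, MUT was higher with a log2 fold change of 0.81 ± 0.262 (SE, edgeR adjusted p = 0.0355) untreated, a call that was lost without the low-count filter, in a fit of these groups alone, and without any 1 of the 3 untreated EV replicates or untreated MUT replicates 2 and 3 (adjusted p up to 0.126). With cytarabine the difference was 1.06 ± 0.246 (SE, edgeR adjusted p = 0.00715). TNFSF12 lies just upstream of TNFSF13 on the same strand, and transcripts that join both genes are known.

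TNFRSF11B was higher in untreated MUT than in EV with a log2 fold change of 0.80 ± 0.0877 (SE, edgeR adjusted p = 5.52e-06) and than in WT with a log2 fold change of 0.63 ± 0.0865 (SE, edgeR adjusted p = 4.69e-05). After cytarabine these log2 differences were 1.55 ± 0.0884 (SE, edgeR adjusted p = 1.79e-09) and 1.34 ± 0.0872 (SE, edgeR adjusted p = 3.95e-09). TNFRSF8, whose upstream window is printed above, held 2.57, 1.69 and 1.23 CPM in untreated EV, 0.785, 0.317 and 0.440 CPM in WT and 0.451, 0.503 and 0.457 CPM in MUT. It was lower than in EV with a log2 fold change of -1.81 ± 0.399 (SE, edgeR adjusted p = 0.00475) in WT and -1.95 ± 0.409 (SE, edgeR adjusted p = 0.0023) in MUT. Both values are a description, because untreated WT and MUT did not hold 10 counts of TNFRSF8 in every library. After treatment it held 2.20, 2.37 and 2.01 CPM in EV, 0.742, 0.432 and 1.02 CPM in WT and 3.08, 2.30 and 1.44 CPM in MUT, so that MUT and EV overlapped and WT stood below both. TNFRSF14 was lower in untreated WT than in EV with a log2 fold change of -0.96 ± 0.249 (SE, edgeR adjusted p = 0.0154), a call lost without untreated EV replicate 2 or 3 or untreated WT replicate 1 or 2 (adjusted p up to 0.0836). It was higher in MUT than in WT with a log2 fold change of 1.13 ± 0.244 (SE, edgeR adjusted p = 0.00265), which was lost in a fit of these groups alone (0.0839). TNFSF9 was higher in MUT than in WT with a log2 fold change of 0.42 ± 0.116 (SE, edgeR adjusted p = 0.0148), and this was lost in a fit of these groups alone (0.148) and without untreated WT replicate 1 (0.0659).

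**Figure D4:**
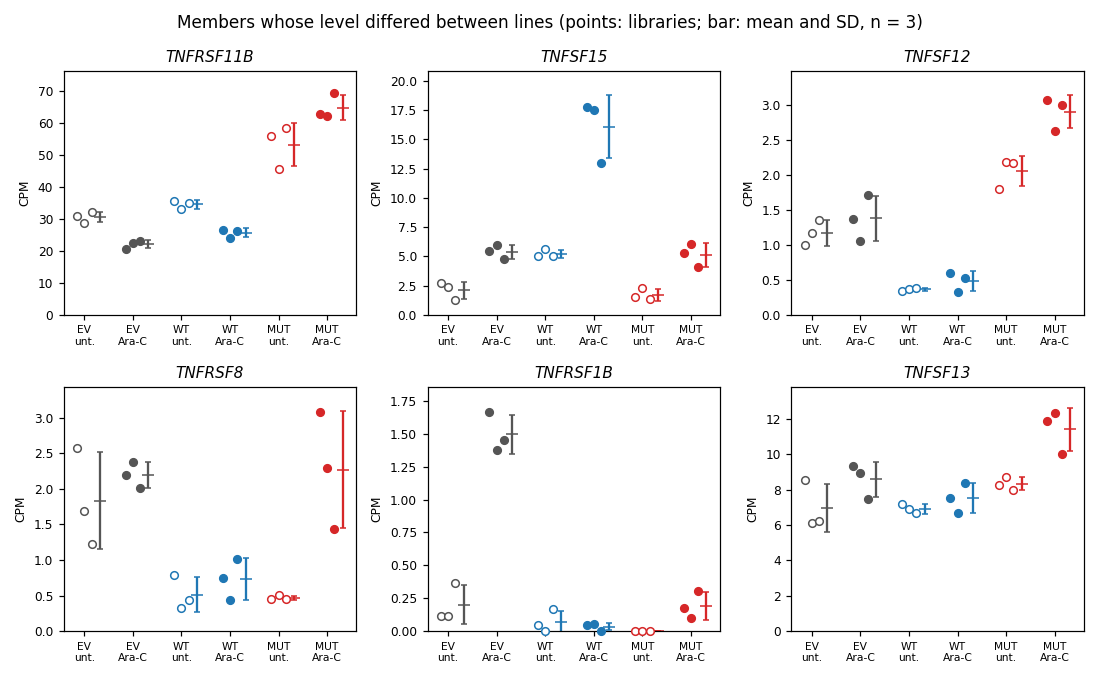
Levels in CPM of 6 members whose level differed between lines, in the 18 libraries by line and treatment, each panel with its own axis from 0. Open points are untreated and filled points treated libraries, and the bar is the mean and SD of 3 replicates. TNFRSF11B is highest in MUT, TNFSF15 highest in WT, TNFSF12 lowest in WT and highest in MUT, and TNFRSF1B is above 1 CPM in treated EV alone.

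Of the 6 tested death-domain receptors, 1 differed between untreated WT and EV, 2 between MUT and EV, and 1 between MUT and WT, beside 11.7%, 19.9% and 21.2% of all genes. FAS was lower in untreated MUT than in EV with a log2 fold change of -0.31 ± 0.0968 (SE, edgeR adjusted p = 0.0276), and TNFRSF10B with a log2 fold change of -0.30 ± 0.0646 (SE, edgeR adjusted p = 0.00315). The FAS call was lost without untreated EV replicate 1 or 3 or untreated MUT replicate 2, with values from -0.40 to -0.19 over all left-out libraries (adjusted p up to 0.144), and both calls were lost in a fit of EV and MUT alone (TNFRSF10B adjusted p = 0.078). TNFRSF21 was lower in MUT than in WT with a log2 fold change of -0.41 ± 0.106 (SE, edgeR adjusted p = 0.00887), a call lost without untreated MUT replicate 3 or untreated WT replicate 2 (adjusted p up to 0.0996) and in a fit of these groups alone (0.118). NGFR was higher in WT than in EV with a log2 fold change of 0.80 ± 0.242 (SE, edgeR adjusted p = 0.0378), which was lost without the low-count filter and without untreated EV replicate 2 or 3 or untreated WT replicate 1 or 3 (adjusted p up to 0.198).

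After cytarabine 9 of 23 members differed between WT and EV, 2 higher and 7 lower (16.5% of all genes, 7.41% higher and 9.12% lower). MUT differed from EV in 5, 3 higher and 2 lower (14.0%, 6.85% higher and 7.13% lower), and from WT in 12, 7 higher and 5 lower (19.8%, 10.4% higher and 9.48% lower). The count for MUT against EV was 3 without treated EV replicate 2 or 3 or treated MUT replicate 2. Libraries did not overlap for 37.1% of all genes between treated WT and EV, 33.6% between MUT and EV and 45.4% between MUT and WT. FAS was highest in treated WT, above EV with a log2 ratio of 0.39 ± 0.0911 (SE, edgeR adjusted p = 0.0054), and lower in MUT than in WT with a log2 fold change of -0.41 ± 0.0908 (SE, edgeR adjusted p = 0.00307). All treated WT libraries exceeded all treated EV and MUT libraries in FAS. TNFRSF10B was lower in MUT than in WT with a log2 fold change of -0.26 ± 0.0638 (SE, edgeR adjusted p = 0.00603), and TNFRSF21 with a log2 fold change of -0.39 ± 0.102 (SE, edgeR adjusted p = 0.0107), the latter with an adjusted p of 0.0501 without treated WT replicate 2. NGFR was lower in WT than in EV with a log2 fold change of -0.64 ± 0.197 (SE, edgeR adjusted p = 0.0305), the reverse of the untreated order. This call was lost without treated EV replicate 1 or 2 or any 1 of the treated WT replicates (adjusted p up to 0.157).

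Several ligands and other receptors also differed between the treated lines. CD70 was lower in treated WT than in EV with a log2 fold change of -0.47 ± 0.118 (SE, edgeR adjusted p = 0.00912) and higher in MUT than in WT with a log2 fold change of 0.65 ± 0.118 (SE, edgeR adjusted p = 0.000629). Without treated WT replicate 2 the first of these had an adjusted p of 0.0639. TNFSF15 was higher in WT than in EV with a log2 fold change of 1.58 ± 0.203 (SE, edgeR adjusted p = 2.43e-05) and lower in MUT than in WT with a log2 fold change of -1.65 ± 0.203 (SE, edgeR adjusted p = 1.17e-05). TNFRSF9 was lower in WT than in EV with a log2 fold change of -1.23 ± 0.124 (SE, edgeR adjusted p = 1.22e-06) and higher in MUT than in WT with a log2 fold change of 0.80 ± 0.125 (SE, edgeR adjusted p = 0.000155). It was also lower in MUT than in EV with a log2 fold change of -0.44 ± 0.118 (SE, edgeR adjusted p = 0.0181), a call lost without treated EV replicate 2 or 3 or treated MUT replicate 2 or 3 (adjusted p up to 0.0903). TNFRSF8 was lower in WT than in EV with a log2 fold change of -1.56 ± 0.372 (SE, edgeR adjusted p = 0.00662) and higher in MUT than in WT with a log2 fold change of 1.62 ± 0.369 (SE, edgeR adjusted p = 0.00402). These values are a description, because TNFRSF8 reached 10 counts in every library only in the EV groups and treated MUT. TNFSF13 was higher in MUT than in WT with a log2 fold change of 0.60 ± 0.137 (SE, edgeR adjusted p = 0.00423). Against EV its value in MUT was 0.41 ± 0.136 (SE, edgeR adjusted p = 0.0496), which passed by a narrow margin and was lost under 5 of 7 other settings and without any 1 library other than treated MUT replicate 3 (adjusted p up to 0.209). CD40 was lower in MUT than in WT with a log2 fold change of -0.23 ± 0.0775 (SE, edgeR adjusted p = 0.0389), a call lost without any 1 of the 6 treated libraries of these lines (adjusted p up to 0.145). TNFRSF1B held 34, 22 and 34 counts in treated EV beside 1, 1 and 0 in WT and 4, 2 and 7 in MUT, without overlap. It is counted among the members lower than in EV in both, again through the group that carried it past the filter. TNFRSF19 was lower in WT than in EV with a log2 fold change of -1.18 ± 0.355 (SE, edgeR adjusted p = 0.0284), a call lost without treated EV replicate 2 or 3 or treated WT replicate 2 or 3 (adjusted p up to 0.14). It was higher in MUT than in WT with a log2 fold change of 1.30 ± 0.35 (SE, edgeR adjusted p = 0.0124), which was lost without treated MUT replicate 3 or treated WT replicate 2 (adjusted p up to 0.0746). Both TNFRSF19 comparisons are likewise a description, since treated WT did not hold 10 counts of it in every library.

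Downstream of the death-domain receptors, the adaptors and caspases moved both ways. Of 18 tested genes of 19 listed, 5 were higher and 7 lower after cytarabine in EV, 7 and 4 in WT, and 4 and 5 in MUT, beside 26.1% higher and 22.9% lower of all genes in EV, 26.3% and 22.7% in WT and 30.4% and 25.9% in MUT. CASP10, APAF1, CASP6 and CASP9 rose in all 3 lines. CASP10, an initiator caspase recruited by death receptors, had a log2 fold change of 2.82 ± 0.224 (SE, edgeR adjusted p = 7.78e-09) in EV, 3.05 ± 0.228 (SE, edgeR adjusted p = 3.54e-09) in WT and 2.78 ± 0.228 (SE, edgeR adjusted p = 6.91e-09) in MUT. APAF1, which forms the apoptosome, had 0.73, 0.91 and 0.97. CYCS (cytochrome c), DIABLO, the adaptor FADD and DAXX fell in all 3, CYCS by log2 fold changes of -0.76, -0.80 and -1.11. CASP8, the other initiator caspase of these receptors, was called in no line, with -0.04, 0.05 and -0.05.

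The TRAF, IAP, LUBAC and NF-kB genes, which carry signals from receptors of the family with and without a death domain, fell more often than they rose. All 34 were tested: 2 were higher and 16 lower in EV, 3 and 15 in WT, and 6 and 17 in MUT, when 22.9%, 22.7% and 25.9% of all genes were lower, with medians of -0.16, -0.18 and -0.18 on the log2 scale. TRAF1, an adaptor that is itself an NF-kB target, fell by 1.85 ± 0.127 (SE, edgeR adjusted p = 1.4e-09), 1.45 ± 0.121 (SE, edgeR adjusted p = 1.45e-08) and 1.89 ± 0.123 (SE, edgeR adjusted p = 4.04e-10) in log2 units in the EV, WT and MUT lines. The inhibitor NFKBIA had log2 fold changes of -1.10, -1.12 and -1.27, the subunit gene RELB -1.11, -0.88 and -1.35, and NFKB1 -1.05, -0.81 and -0.99. The ubiquitin ligase gene BIRC3 had -0.99, -0.75 and -0.80, and TNFAIP3, whose product limits NF-kB signalling, -0.83, -0.64 and -0.58. In total 13 of the 34 genes fell in every line and 2 rose in every line, whereas 16.4% of all genes fell and 18.9% rose in all 3. Those that rose were TRAF5 with 0.41, 0.44 and 0.73 and the deubiquitinase gene CYLD with 0.55, 0.54 and 0.32. Under upper-quartile scaling the numbers higher and lower were 4 and 14, 3 and 14, and 7 and 15, and with the authors' scale factors 2 and 20, 3 and 17, and 5 and 19.

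**Figure D5:**
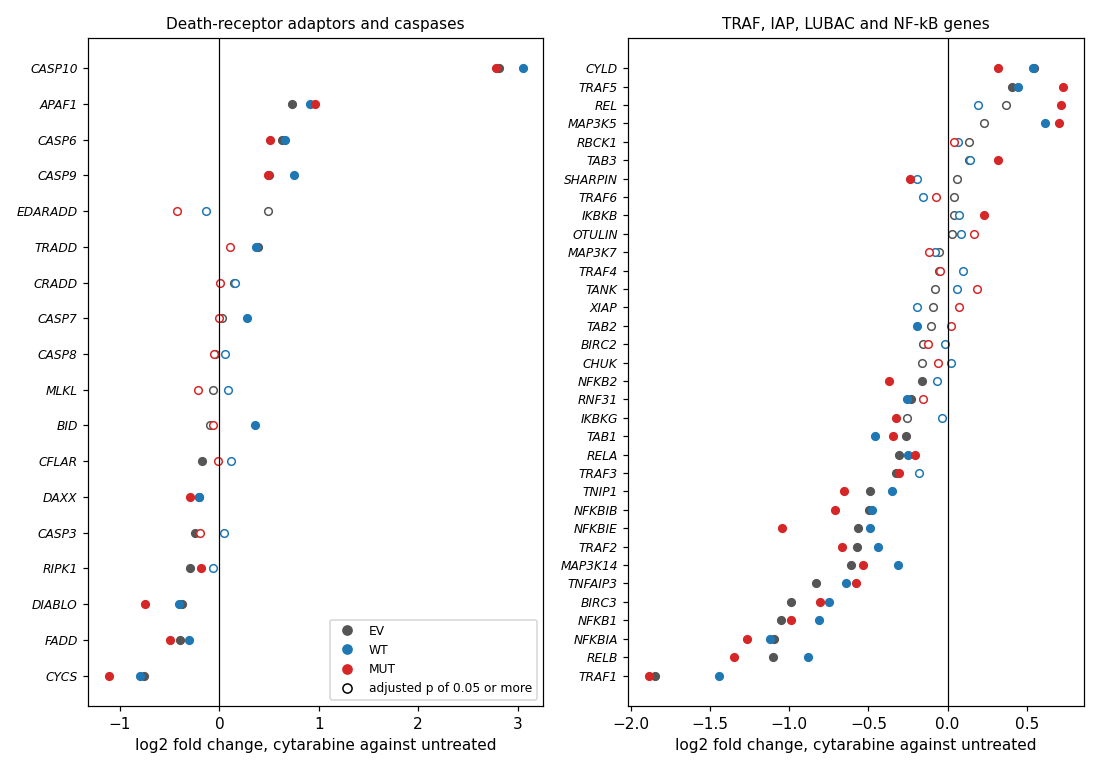
Log2 fold change of cytarabine-treated against untreated cells for the 18 tested adaptor and caspase genes (left) and the 34 TRAF, IAP, LUBAC and NF-kB genes (right), in EV (grey), WT (blue) and MUT (red). Open points did not pass the adjusted p of 0.05. CASP10 has the largest rise on the left, and TRAF1, RELB, NFKBIA and NFKB1 the largest falls on the right in EV.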

How the data were processed

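Total RNA was sequenced in 18 libraries, 3 biological replicates in each of 6 groups taken from the sample titles. Reads were aligned to hg38 with STAR 2.6.1d and CASAVA was used, per the submitters' processing notes. How reads were counted per gene, with or without strand and with what rule for repeated matches, is not given in the sources used here. The authors deposited estimated counts per gene for 25296 genes, of which 70.4% of values were whole. A second table deposited by the authors holds a normalized signal for 19591 genes, which equalled 1 plus a factor per library times the count (largest relative deviation 7.33e-06), and its factors served as an alternative scaling. Library totals were 15.4 to 21.9 M, so that counts near 3 carry large counting error. The members and gene lists were chosen with earlier results of these data known.

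Counts were rounded, filtered with filterByExpr (18226 genes left) and scaled by TMM in edgeR 4.0.16 (R 4.3.3). A single quasi-likelihood model of 18 libraries held a coefficient per group, and 12 contrasts were tested with Benjamini-Hochberg adjustment over all tested genes at 0.05. The SE is the size of the log2 fold change over the root of its F statistic. The p-values set each difference against a spread between replicate cultures that the fit shares over the groups. The spread of single groups, as a biological coefficient of variation, ran from 0.0398 to 0.216. Each construct was represented by a single line, so p-values between lines do not cover other derivations of EV, WT or MUT. The edgeR fit was also run on simulated counts with the same spread in all groups. That run does not bear on the unequal spread of these groups or on members with few counts. Alternatives were DESeq2 1.42.0, other filters and scalings, a replicate block, fits of only the groups compared and leaving out each library. Every member was named. Full statistics were given for death-domain receptors and for members called at least once whose mean log2 CPM was not below 0. Coordinates are those of the authors' table, and lengths are of GENCODE 44 canonical transcripts.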

Additional observations from a re-analysis of the deposited data

Results flagged for a closer look

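TNFRSF11B was singled out because the test of the difference between lines passed. Its log2 fold change with cytarabine was a rise in MUT and a fall in EV and WT. The value in MUT minus that in EV was 0.75 (edgeR adjusted p = 0.017), and minus that in WT it was 0.71 (adjusted p = 0.00803). The difference from EV was lost in a fit of EV and MUT alone (edgeR adjusted p = 0.134) and without untreated EV replicate 1 or 3 or treated MUT replicate 3. TNFRSF11B was lower after treatment in 3 of 3 EV and 3 of 3 WT replicates than in any untreated replicate of the same line, and higher in 3 of 3 MUT replicates. The untreated MUT replicates, which enter both differences, held 55.9, 45.6 and 58.5 CPM.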

How the results depend on the processing

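Of 93 calls of a member in a contrast, 67 held under every alternative and 26 were lost under at least 1 (24 when a library was left out, 15 under another setting), and 0 changed direction. Of the 44 calls for cytarabine, 36 held throughout, among them FAS and NGFR in each line. With only the groups compared in the fit, 11 of 21 tested members differed between untreated WT and EV (31.5% of all genes), 2 of 21 between untreated MUT and EV (5.83%) and 5 of 20 between untreated MUT and WT (7.16%), against 7, 6 and 8 of 23, and the cytarabine effect differed for 2 members between WT and EV and for 0 between MUT and EV. With a mean of at least 50 counts, which tested 15 members, 3 differed between untreated MUT and EV (28.0% of all genes), and 1 in the effect of WT against EV. DESeq2 and the replicate block each gave 1 for WT against EV, under the block NGFR (log2 difference -1.44, adjusted p = 0.0466). The replicate block gave 15, 13 and 16 members for cytarabine in EV, WT and MUT. Whether the replicate numbers mark a shared batch was not tested. Deviations of same-numbered libraries correlated between -0.176 and 0.353, the highest for replicate 3 of treated EV and untreated MUT. Differently numbered libraries were not compared. With single libraries left out, counts ran from 10 to 15, 12 to 13 and 16 to 17 for cytarabine in EV, WT and MUT. They ran from 5 to 7 (WT against EV), 3 to 8 (MUT against EV) and 7 to 10 (MUT against WT) untreated, and from 6 to 8, 3 to 5 and 9 to 11 treated. For differences between effects they ran from 0 to 0, 0 to 1 and 1 to 2. The causes were not tested. Depth limits the 11 untested members, which held at most 10 counts in any library.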

Other observations

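Several genes of the superfamily carry other symbols and were not members by the rule. Of 7 listed, CD40LG had no row, LTA was not tested, and TNF, LTB, EDA, EDA2R and RELT were tested. EDA, the ectodysplasin ligand of EDAR, rose after cytarabine in all 3 lines, with log2 fold changes of 1.12 ± 0.156 (SE, edgeR adjusted p = 7.56e-06) in EV, 0.87 ± 0.159 (SE, edgeR adjusted p = 0.000149) in WT and 1.11 ± 0.16 (SE, edgeR adjusted p = 8.69e-06) in MUT. It reached 20.4 ± 3.44 CPM (SD, n = 3) in treated EV from 9.33 ± 1.28 CPM. EDA2R, a second ectodysplasin receptor and a known p53 target, rose in WT with a log2 fold change of 0.43 ± 0.0861 (SE, edgeR adjusted p = 0.00037) and in MUT with a log2 fold change of 0.40 ± 0.0875 (SE, edgeR adjusted p = 0.000662), and had 0.19 ± 0.0858 (SE, edgeR adjusted p = 0.0751) in EV. TNF itself was sparse, with 7, 3 and 4 counts in untreated EV, 6, 9 and 1 in WT and 35, 13 and 30 in MUT. After cytarabine it held 1, 1 and 6 counts in EV, 2, 2 and 2 in WT and 17, 14 and 17 in MUT. Only the MUT groups held at least 10 counts of TNF in every library. Since it passed the low-count filter through the line where it was high, no fold or test is given for it. LTB, a subunit of lymphotoxin, held 20, 21 and 35 counts in untreated EV and 8, 1 and 6 in treated EV. Only untreated EV held at least 10 counts of LTB in every library, so no test is given for it. RELT was called in no line for cytarabine, with log2 fold changes of -0.03, 0.12 and 0.00. Of the 6 listed genes for shedding or glycosylation, 3 were tested. The sheddase gene ADAM10 had 0.02, 0.05 and 0.14 on the log2 scale (adjusted p = 0.833, 0.533 and 0.0666), and ADAM17 had 0.05, 0.04 and 0.15 (adjusted p = 0.696, 0.747 and 0.207). GALNT14, a glycosyltransferase linked to TRAIL receptors, rose in all 3 lines with a log2 fold change of 0.23 ± 0.0672 (SE, edgeR adjusted p = 0.00871), 0.38 ± 0.069 (SE, edgeR adjusted p = 0.000151) and 0.32 ± 0.0665 (SE, edgeR adjusted p = 0.000496). It was lower in untreated WT than in EV with a log2 fold change of -0.57 ± 0.0692 (SE, edgeR adjusted p = 1.21e-05).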
